A study of Mus musculus with 4 samples.

Results

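PolyA sites with tags in both of libraries 1 and 2, and with no tag in either of libraries 3 and 4, were examined among the mRNA 3′ ends of CA1 neuropil. All 4 libraries belong to 1 group by their labels, so the sites were set apart by the library that held their tags and not by any treatment. The members were every row of the deposited table with at least 1 tag in both of the first pair of libraries and 0 tags in both of the others. They came to 405 of 9297 sites (4.36%) and carried 401 gene names. They were chosen by their tag counts in the 4 libraries, so the tag values of these sites are given as a description with no test.

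The tissue was CA1 neuropil, the layer of mainly dendrites, axons and glia beside the pyramidal cell bodies, dissected from hippocampal slices of C57BL/6 mice. All animals had the genotype Camk2a-Cre x Pabpc1-cTag and the labels give no treatment. Cre driven by the Camk2a promoter switches on a GFP tag on Pabpc1 in excitatory neurons, and tissue of several adult mice was pooled for a library, with numbers of mice that differed between libraries. Slices were crosslinked with ultraviolet light, and RNA bound to the tagged protein was recovered as short fragments, called tags, that end near the poly(A) tail (cTag-PAPERCLIP).

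A polyA site is the position at which a nascent mRNA is cut and given its poly(A) tail. The cut is directed by a signal, most often AATAAA or ATTAAA in the DNA, that lies a short way upstream of it, and many neuronal genes use several such sites and so make 3′UTRs of different length. Pabpc1 is the main cytoplasmic poly(A)-binding protein. Bc1, whose sequence recurs at part of the members, is a short noncoding RNA that is abundant in rodent neurons and dendrites. Its first part belongs to the ID family of repeats, copies of which lie at many places in the genome.

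Libraries 1 to 4 held 16017, 6609, 5947 and 6099 tags. Taking 3 tags as the limit, a site with 0 tags could still hold 0.0187% of library 1, 0.0454% of library 2, 0.0504% of library 3 or 0.0492% of library 4. The depth of the libraries that lack the members' tags was thus below that of library 1, and sites with few tags could be missed there. All intervals and limits here cover counting error only, since amplified tags are not independent molecules. Nothing in the sources states which library came from which animals, and a library's own preparation cannot be told apart from the tissue it was made of.

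The sequences around the most tagged members show 2 different kinds of site, so both are printed before the values. The first lines give the 13 members among the 20 with the most tags that did not resemble Bc1, each as 30 bases of GRCm38 (mm10) read 5′ to 3′ on the strand of the site, with 18 bases before the listed base and 11 after it. Capitals mark AATAAA or ATTAAA.
Ccdc85c, chr12:108203610-108203639, minus strand: actttgaactagatAATAAAggcctctttg
Snord95 in Rack1, chr11:48806054-48806083, plus strand: tgacaaagtcttagaAATAAActggctttc
Mlc1, chr15:88955900-88955929, minus strand: ttatagattaatatgcttgagcAATAAAtg
Snord15b in Rps3, chr7:99478891-99478920, minus strand: taaAATAAAgacatttAATAAAatcttgaa
Trnp1, chr4:133491113-133491142, minus strand: aactatatacacgcaagaagAATAAAtcga
Mir7000 in Mapk8ip1, chr2:92383680-92383709, minus strand: acctggctactATTAAAgtgccatttcttg
Cox7c, chr13:86044808-86044837, minus strand: aAATAAActaatgacataaagattcaatgc
Mturn, chr6:54703815-54703844, plus strand: ccatacgcttgctATTAAAgagccttccag
Sbk1, chr7:126294974-126295003, plus strand: ctaactatgacaattgctataaAATAAAaa
Gng13, chr17:25719048-25719077, plus strand: tctgtaaggtgtgactttataaatagactt
St6galnac6, chr2:32620763-32620792, plus strand: ggttttgtaatgatttatacagaAATAAAc
Car2, chr3:14900729-14900758, plus strand: aatgtattttagatatattctctAATAAAa
Guk1, chr11:59183880-59183909, minus strand: agcgggactgacctcttAATAAAgtaatta

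A signal stands in 12 of these 13 windows, and the exception is Gng13. In Rps3 the window holds 2 copies. The signal stands around the listed base, before it at Cox7c and Mapk8ip1, across it at Ccdc85c and Rack1, and after it at Mlc1, Trnp1 and Car2.

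The next lines show the start of Bc1 and the stretch that matched it at the 6 most tagged Bc1-like members. Capitals mark the bases that differ from Bc1, and the coordinates are those of the printed stretch.
Bc1, chr7:144914470-144914499, plus strand: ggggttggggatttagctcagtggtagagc
Clcn3, chr8:60854267-60854296, minus strand: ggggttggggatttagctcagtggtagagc
Akap14, chrX:37119285-37119314, minus strand: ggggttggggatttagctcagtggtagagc
Mir505, chrX:60222990-60223019, minus strand: ggAgttggggatttagctcagtggtagagc
Zbtb25, chr12:76333463-76333492, minus strand: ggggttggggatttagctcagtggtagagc
Rasl2-9, chr7:5124092-5124121, minus strand: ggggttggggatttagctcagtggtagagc
Fam166b, chr4:43132271-43132300, minus strand: ggggttggggCtttagctcagtggtagagc

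The first 74 bases of Bc1 were split into 63 overlapping words of 12 bases, and sites with 10 or more of these words within 75 bases were taken as Bc1-like. There were 15 such members, and the matching stretch lay on the strand of the site in all 15. At 7 of them the first 30 bases were those of Bc1 letter for letter, and at 4 of them (Clcn3, Zbtb25, Rasl2-9 and Spidr) all 74 bases were. How tags that match several places were treated is not stated, so a count at these sites does not locate the RNA.

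The members held 884 tags in library 1, which is 5.52% of that library (95% Wilson interval 5.18 to 5.88), and 861 tags in library 2, which is 13.0% (12.2 to 13.9). The mean share was 9.27% ± 5.31 (SD, n = 2). The share was therefore higher in the shallower library. Most single members rested on few tags. In all, 172 members (42.5%) had 1 tag in each library, 169 had 3 to 5 tags over both, 40 had 6 to 9, and 24 had 10 or more.

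A single tag is 0.00624% of library 1 and 0.0151% of library 2. As a share of the library, 362 members were higher in library 2 and 43 were higher in library 1, and all 172 members with 1 tag in each library count for library 2 through its lower depth. With Bc1-like sites left out of the totals, 293 were higher in library 2 and 112 in library 1. Libraries 3 and 4 held 12046 tags against 22626 in libraries 1 and 2, and at that ratio 341 members (84.2%) would scale to fewer than 3 tags over libraries 3 and 4. The other 64 members scale to 3 tags or more, and 55 of these were not Bc1-like. With Bc1-like sites left out of the totals (11766 against 16584 tags), 314 members (77.5%) scale to fewer than 3 tags and 91 to 3 or more, of which 79 were not Bc1-like.

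**Figure D1:**
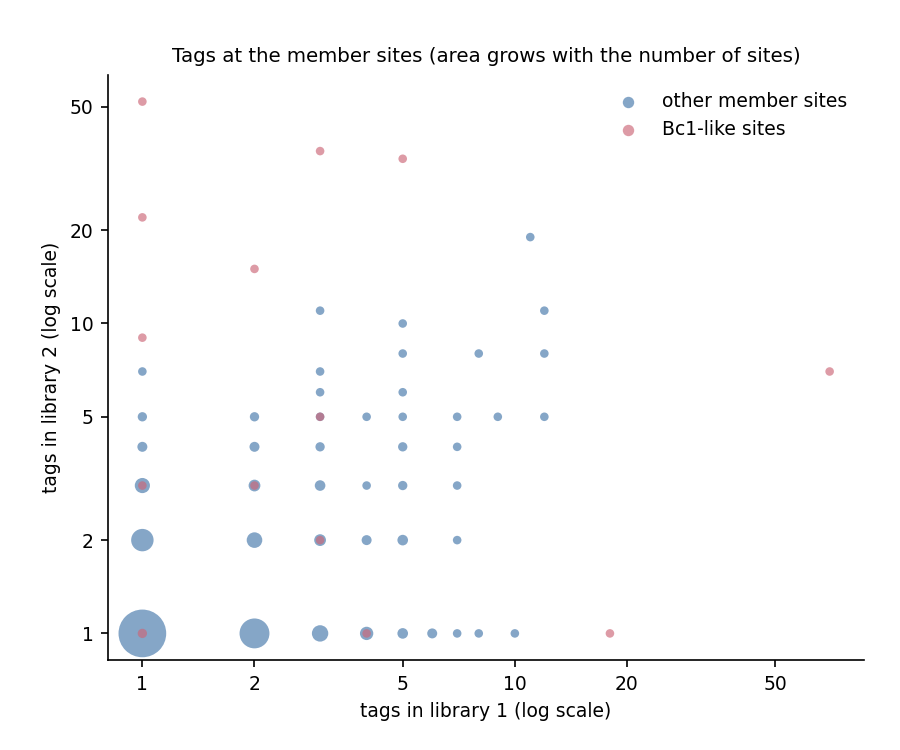
Tags in library 1 (x axis, log scale) against tags in library 2 (y axis, log scale) at the 405 member sites, with the area of a point growing with the number of sites at that pair of counts. The largest point is the 172 sites with 1 tag in each library, and all points past 20 tags in either library are Bc1-like sites (red).

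Bc1-like members are described first, as they lead the list by tags. The site named Akap14 had 70 tags in library 1 and 7 in library 2. The site named Clcn3 had 1 and 52, the site named Mir505 had 5 and 34, and the site named Zbtb25 had 3 and 36. One library held most of the tags at each of these 4 sites, and it was library 1 at Akap14 and library 2 at the other 3. Rasl2-9 followed with 1 and 22 tags, Fam166b with 18 and 1, and Zbtb1 with 2 and 15.

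The remaining Bc1-like members were lower. Gm26682 had 1 and 9 tags, Pm20d1 had 3 and 5, Gm19619 had 3 and 2, and Spidr had 2 and 3. Shb had 4 and 1 tags, Mir450b had 1 and 3, and Lama4 and Otoa had 1 and 1. None of the 15 sites lay in a 3′UTR, none had a polyA signal within 50 bases, 12 lay between genes and 3 in introns. No site between genes lay in the gene it is named for, and the distance past the end of that gene ran from 0.867 kb at Rasl2-9 over 31.4 kb at Akap14 to 548 kb at Gm26682. Spidr and Lama4 lay in introns of the genes they are named for, and Otoa in an intron of another gene.

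Together the Bc1-like members held 116 tags in library 1 (0.724%, 0.604 to 0.868) and 192 in library 2 (2.91%, 2.53 to 3.34). These were 17.7% of all member tags at 15 of the 405 sites. Over the whole table, 112 sites were Bc1-like and held 5265, 777, 154 and 126 tags in libraries 1 to 4, and 52, 82, 12 and 11 of these sites were detected there. A single site in an intron of Hdac8 (chrX:102296910), named here after its values were seen, held 4030, 1, 134 and 99 of these tags, and the other 111 sites held 1235, 776, 20 and 27. With or without that site, Bc1-like sites held more tags in libraries 1 and 2 than in libraries 3 and 4. Without the Bc1-like sites the members were 390 and held 768 tags in library 1 (4.79%) and 669 in library 2 (10.1%).

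**Figure D2:**
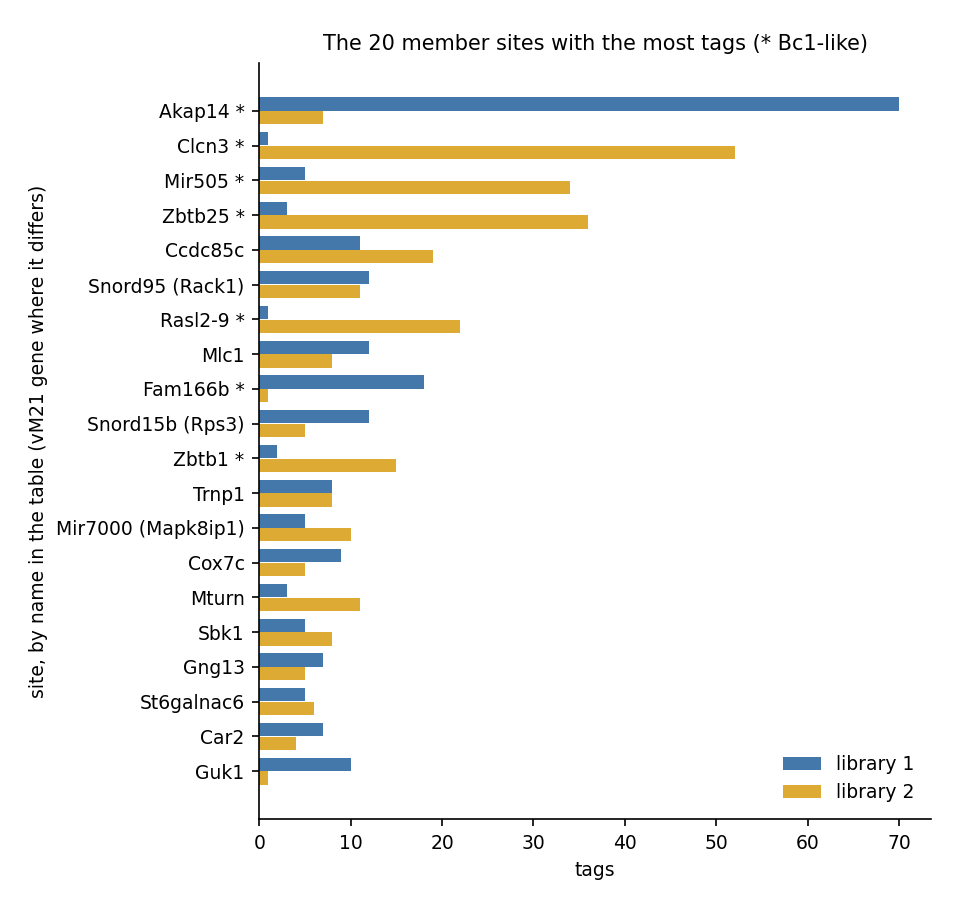
Tags in library 1 (blue) and library 2 (yellow) at the 20 member sites with the most tags, in order of their sum, with Bc1-like sites starred. At most starred sites 1 library holds nearly all tags, while Ccdc85c, Snord95 in Rack1, Mlc1 and Trnp1 have at least 8 tags in both libraries.

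The 13 other sites of the leading 20 all lay in 3′UTRs, and at 9 of them the listed base was within 30 bases before the annotated end of the gene. Which base of a tag cluster the table lists is not stated, so it may not be the cut itself, and distances here are those of the listed base. Ccdc85c, which encodes a coiled-coil protein, had 11 tags in library 1 and 19 in library 2, at a site 19 bases before the gene's end. The site named Snord95 had 12 and 11 tags and lay in the 3′UTR of Rack1, a scaffold protein of the small ribosomal subunit, 30 bases after the stop codon. Mlc1, a membrane protein of astrocytes, had 12 and 8 tags. As shares, Ccdc85c was 0.0687% of library 1 and 0.287% of library 2, the Rack1 site 0.0749% and 0.166%, and Mlc1 0.0749% and 0.121%.

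Snord15b, which lay in the 3′UTR of the ribosomal protein gene Rps3, had 12 and 5 tags. Trnp1, a nuclear protein known from the growth of the developing cortex, had 8 and 8 tags. Mir7000 lay in the 3′UTR of Mapk8ip1, a scaffold of JNK signalling that is carried by kinesin, and had 5 and 10 tags. Snord15b and Mir7000 are names of small RNAs, which end 0.661 kb and 3.69 kb before these sites.

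Cox7c, a subunit of cytochrome c oxidase, had 9 and 5 tags at a site 3 bases before the gene's end. Mturn, a regulator of neural differentiation, had 3 and 11 tags at a site 4746 bases from its stop codon. Sbk1, a serine/threonine kinase, had 5 and 8 tags. Distances from the stop codon thus varied widely among the leading members, from 22 bases at Rps3 to that of Mturn.

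Gng13, a G protein gamma subunit, had 7 and 5 tags and was the only one of the 13 without a signal within 50 bases. Its site lay 37 bases from the stop codon and 340 bases before the annotated end. St6galnac6, a sialyltransferase, had 5 and 6 tags, Car2, a carbonic anhydrase, had 7 and 4, and Guk1, guanylate kinase, had 10 and 1. The GC content around the 13 sites ran from 31.8% to 55.2%.

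Sites just outside the rule were much like those just inside it by tags. There were 284 sites with tags in both of libraries 1 and 2 and exactly 1 tag in libraries 3 and 4 together, and the median over libraries 1 and 2 was 3 tags for these sites and 3 tags for the members. The most tagged was a site named Mir6982 in the 3′UTR of Camk2a, with 69, 1, 1 and 0 tags in libraries 1 to 4. A site named Mir7664 in Nsmf had 15, 26, 1 and 0 tags, and Mt1, a metallothionein, had 20, 7, 0 and 1. A Bc1-like site named 4930559C10Rik had 1, 23, 0 and 1, and a second Mir6982 site in Camk2a had 13, 10, 1 and 0. A single tag thus separates well tagged sites such as Mt1 from the members.

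The number of members was within the range given by the other pairs of libraries. Sites with tags in exactly 1 pair numbered 400 (4.3%) for libraries 1 and 3, 456 (4.9%) for 1 and 4, 153 (1.65%) for 2 and 3, 118 (1.27%) for 2 and 4, and 323 (3.47%) for 3 and 4. The pairs differ in depth, and library 1 was the deepest. With at least 2 tags in both libraries, 75 members were left, beside 32, 49, 8, 8 and 73 sites of the other pairs in the same order. Of the pairs that share library 2, that with library 1 therefore held the most sites.

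Most members lay in annotated 3′UTRs. Of the members, 349 (86.2%, 82.5 to 89.2) were 3′UTR sites, 37 (9.14%) fell between genes, 10 in introns, 9 in noncoding exons and none in a coding exon or 5′UTR. The share in 3′UTRs was 76.5% over the whole table and 66.1% (60.8 to 71.1) for the sites seen only in libraries 3 and 4, while it ran from 88.1% to 91.2% for the other 4 pairs. The interval of the members lies above that of the libraries 3 and 4 pair. Of the 37 members between genes, 12 were Bc1-like.

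AATAAA or ATTAAA was found up to 50 bases before or after the listed base at 334 members (82.5%, 78.5 to 85.9). It was AATAAA at 284 of them and ATTAAA alone at 50. The share was 78.1% over the whole table, 67.7% (62.4 to 72.6) for libraries 3 and 4 only, between 81.7% and 86.0% for the other 4 pairs, and 89.3% for the 456 sites with tags in all 4 libraries. The members were therefore close to the other pairs, and the sites of libraries 3 and 4 were lowest. Without the Bc1-like sites the share of members was 85.6%.

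**Figure D3:**
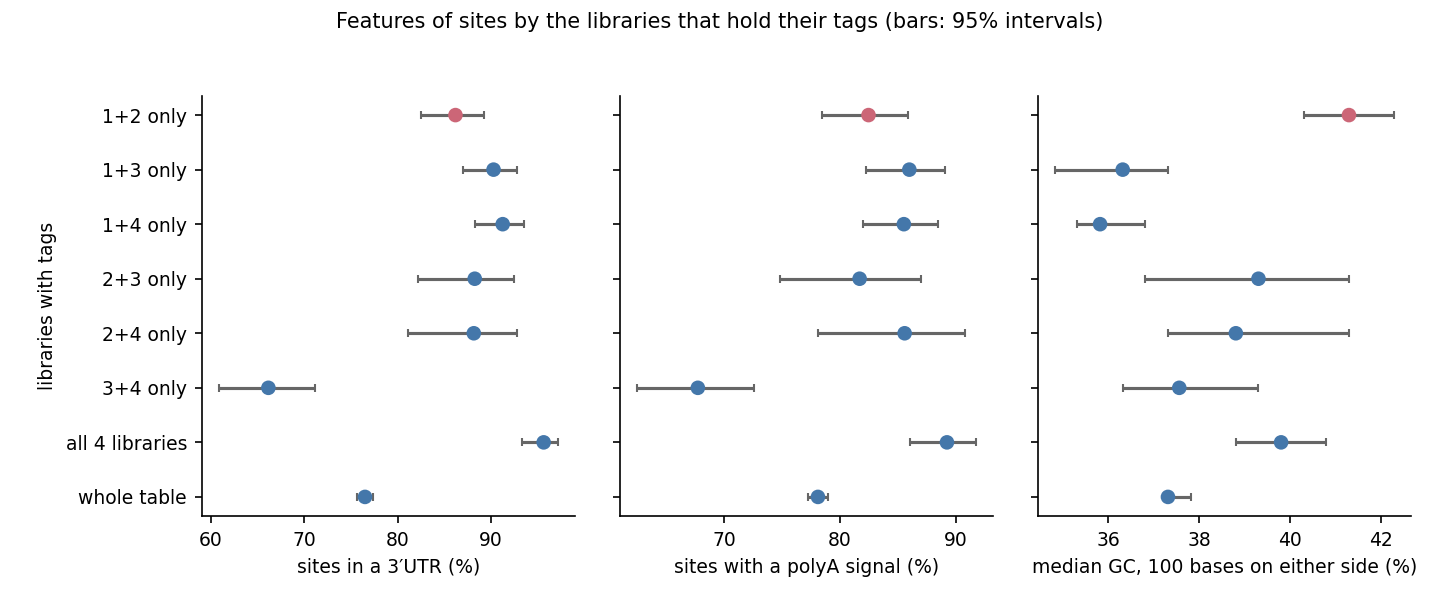
Share of sites in a 3′UTR, share with AATAAA or ATTAAA within 50 bases, and median GC content over 100 bases on either side (x axes, in percent) for the members (red), the other 5 pairs, sites in all 4 libraries and the whole table, with bars for 95% intervals. The members have the highest median GC content, 41.3%, and the libraries 3 and 4 pair has the lowest shares in the first and second panels.

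The signal sat close to the listed base. It started a median of 1 base before the base that the table lists, with quartiles from 5 bases before to 3 bases after it, and at 313 of the 334 members with a signal it started between 15 bases before and 10 bases after. The quartiles over the whole table were 6 bases before to 3 bases after. The listed base of a member thus lies at or near the signal itself, as in the rest of the table. With a search of the 50 bases upstream alone, the signal was found at 26.2% of members.

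**Figure D4:**
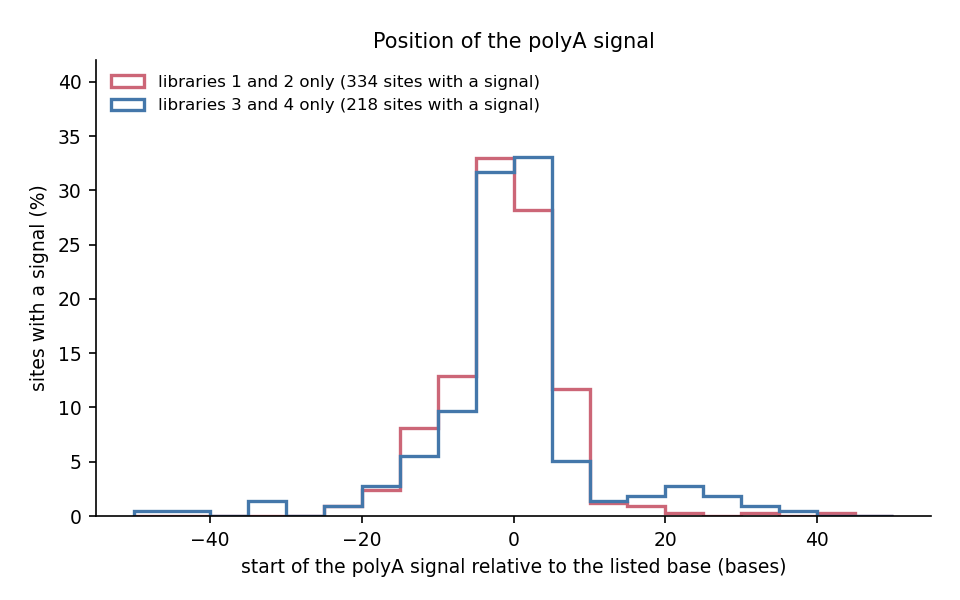
Position at which the nearest AATAAA or ATTAAA starts relative to the listed base (x axis, in bases, negative upstream) for the 334 members with a signal (red) and the sites of libraries 3 and 4 only that have one (blue), in percent of these sites per 5 bases. Both peak around the listed base.

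Members also lay close to annotated gene ends. In all, 214 (52.8%) lay within 100 bases of the end of the gene they are named for, of which 212 lay before it, by a median of 23 bases. The share was 41.8% over the whole table and 39.1% for libraries 3 and 4 only, while it ran from 52.3% to 55.9% for the other 4 pairs and was 65.8% for sites in all 4 libraries. The members thus lay within the range of the other pairs. The median distance of 3′UTR members from the stop codon was 911 bases (95% interval 754 to 1064), beside 960 over the whole table and 1051 for libraries 3 and 4 only. The interval of the members holds the whole table's median.

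GC content around the members was higher than around the sites of the whole table. The median over 100 bases on either side was 41.3% (40.3 to 42.3, quartiles 35.3 to 47.3), against 37.3% over the whole table. It was 36.3% for libraries 1 and 3, 35.8% for 1 and 4, 39.3% for 2 and 3, 38.8% for 2 and 4, 37.6% for 3 and 4, and 39.8% for sites in all 4 libraries. The pairs that include library 2 thus had the higher medians. The median over all detected sites of a library was 37.8%, 40.3%, 37.3% and 36.8% for libraries 1 to 4, so it was highest in library 2, and the part of library 2 in the members' value was not tested.

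Within 3′UTRs the members had a median GC content of 41.3% (40.3 to 43.3). It was 39.3% (36.8 to 41.8) for libraries 2 and 3, 39.8% (37.8 to 42.8) for 2 and 4, 36.3% for 1 and 3 and for 1 and 4, 35.8% (34.3 to 37.3) for 3 and 4, and 39.8% (38.8 to 40.8) for sites in all 4 libraries. The intervals of both other pairs with library 2 and of the sites in all 4 libraries overlap that of the members. Among the members, the 75 sites with at least 2 tags in both libraries had a median of 43.3%, and the 172 sites with 1 tag in each had 40.0%. GC content of at least 50% was found at 63 members (15.6%), beside 9.54% of the whole table and 12.4% of the libraries 3 and 4 sites. Without the Bc1-like sites the median over members was 40.8%.

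**Figure D5:**
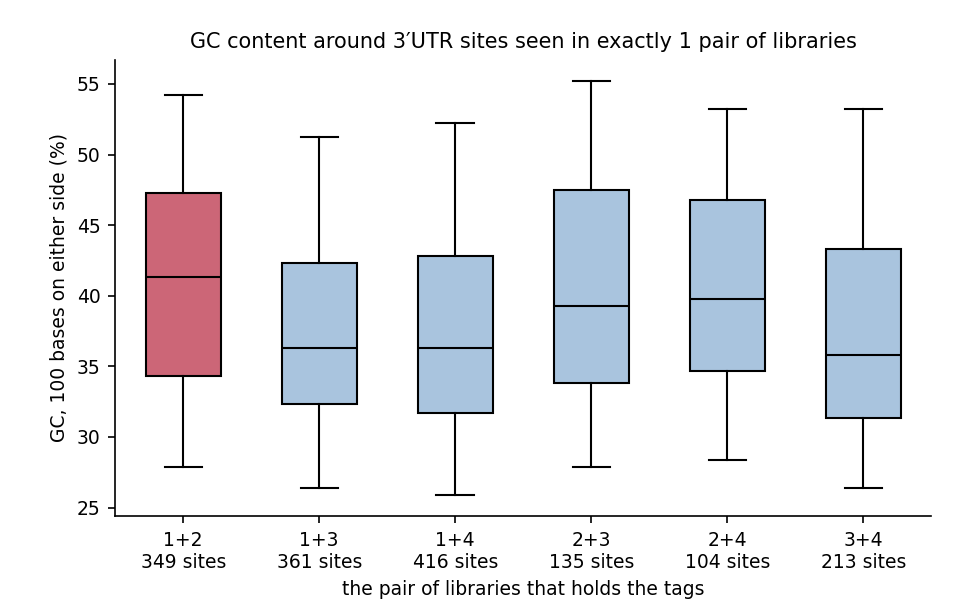
GC content over 100 bases on either side (y axis, in percent) of 3′UTR sites seen in exactly 1 pair of libraries (x axis), as medians, quartiles (boxes) and the 5th to 95th percentiles (whiskers). The 349 members (red) have a median of 41.3%, and the 213 sites of libraries 3 and 4 have 35.8%.

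The names of small RNAs stand at some of the members. In all, 30 members (7.41%) are named for a microRNA or snoRNA, beside 491 sites (5.28%) in the whole table. Of the 30, 25 lay in a GENCODE vM21 gene of another name, and 21 lay in a 3′UTR. The sites with small-RNA names therefore mostly lay in the 3′UTR of a gene, as those in Rack1, Rps3 and Mapk8ip1 above. Whether the small RNA itself lies in that gene was not examined. Further cases were Mir5617 at the 3′UTR of Syn1, a protein of synaptic vesicles, with 2 and 2 tags, and Snora41 at that of Eef1b2, a translation elongation factor, with 5 and 3 tags.

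Of the genes with members, 4 had 2 member sites each. Ssbp3, a transcription cofactor, had sites 175 bases apart with 1 and 1 tags and with 1 and 2 tags. Trim8, a ubiquitin ligase, had sites 133 bases apart with 2 and 2 tags and with 3 and 4 tags. Ttbk1, a kinase of tau and tubulin, had sites 13471 bases apart with 1 and 1 tags each, and Zfpm1, a transcription cofactor, had sites 621 bases apart with 1 and 1 and with 2 and 1. In 3 of the 4 genes the sites lay within 1 kb of each other.

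Whether the genes of the members were seen in libraries 3 and 4 at another site was examined next. This was the case for 95 members (23.5%, 19.6 to 27.8), and for the other pairs the same count, taken in the libraries that each pair lacks, was between 22.5% and 32.0%. The members therefore lay within the range of the other pairs. In 43 of the 95 the member lay downstream of the strongest such site and in 52 it lay upstream, at a median distance of 1693 bases. The 206 other sites of member genes held 1.57%, 1.95%, 2.15% and 2.20% of the tags of libraries 1 to 4 (1.97% ± 0.287, SD, n = 4). With Bc1-like sites left out of the sites and the totals, the shares were 2.33%, 2.06%, 2.21% and 2.24%. The order of the libraries thus turns with the total used, and the shares span a narrow range under both.

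The 5 members whose genes had the most tags elsewhere in libraries 3 and 4 are given as a description. Their 0 tags in those libraries come from the rule, and each rests on 2 or 3 tags, so their absence there shows no difference in the use of sites. Nf1, which encodes neurofibromin, a regulator of Ras, had 2 and 1 tags in libraries 1 and 2 at a 3′UTR site (chr11:79581591), while a site in an intron (chr11:79496621) had 0, 0, 10 and 14 tags in libraries 1 to 4. Lgi1, a secreted synaptic protein tied to epilepsy, had 1 and 1 tags at a 3′UTR site (chr19:38308916), while a site between genes that carries its name (chr19:38382911) had 0, 0, 9 and 8. At Nf1 and Lgi1 both sets of libraries thus had tags, at different places, and neither distant site lies in an annotated 3′UTR.

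The other 3 genes had a further 3′UTR site with tags in all libraries. Basp1, a membrane protein of growing axons, had 1 and 2 tags at the member (chr15:25364078) and 1, 3, 1 and 8 at a site 784 bases downstream. A distant site that carries its name (chr15:24857813), in an intron of another gene, had 0, 0, 5 and 1. Cyfip2, a subunit of the WAVE actin regulatory complex that also binds FMRP, had 1 and 1 at the member (chr11:46196092) and 5, 1, 7 and 3 at a site 2213 bases downstream. Ppp1r9b, the spine protein spinophilin, had 2 and 1 at the member (chr11:95006596) and 19, 36, 2 and 7 at a site 279 bases downstream. Of the member and the site downstream of it, the member had fewer tags over all libraries at each of these genes.

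The named groups of genes were read against the 4.36% of all sites that are members, with no test of any list, and the sites seen only in libraries 3 and 4, which make up 3.47% of all sites, were counted beside them. Cytosolic ribosomal proteins, the protein part of the translating ribosome, had 7 members among 55 sites (12.7%), beside 1 site of the libraries 3 and 4 pair. The most tagged were Snord15b in Rps3 (12 and 5 tags), Rpl11 (5 and 2), Rps9 (2 and 2) and Rpl34 (1 and 2). The site named Rps25 lay 71.7 kb beyond Rps25 itself, in a noncoding exon of C030014I23Rik. Ribosomal protein genes have many processed copies in the genome, and tags shared with such copies are uncertain here.

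The same list can be read at sites that belong to neither pair. At its 47 sites outside the members and the libraries 3 and 4 pair there were 203, 147, 42 and 37 tags, or 1.27%, 2.22%, 0.706% and 0.607% of libraries 1 to 4. Libraries 1 and 2 were both above libraries 3 and 4 there as well. These shares were looked at after the members' count was known and were not tested. Lists whose share of members was nearer the background were mixed. Motor proteins (1.37%, 2.69%, 0.841% and 0.820%) and the ubiquitin and proteasome list (1.93%, 2.84%, 1.66% and 1.71%) also had higher shares in libraries 1 and 2. The postsynaptic density list (3.57%, 4.37%, 2.10% and 3.10%) did too. So did the glutamate and GABA receptor list (0.999%, 1.15%, 0.841% and 0.738%). Higher shares in libraries 1 and 2 were therefore not particular to ribosomal proteins. The cytoskeleton list (1.45%, 2.39%, 2.17% and 2.75%), the Rab and Arf list (0.893%, 1.07%, 0.925% and 1.26%), the RNA-binding list (0.918%, 1.13%, 0.925% and 1.23%) and the phosphatase list (0.805%, 1.24%, 0.992% and 1.34%) were highest in library 4. Without Bc1-like sites, only the cytoskeleton list of these stayed highest in library 4 (2.17%, 2.71%, 2.23% and 2.81%). The Rab and Arf list (1.32%, 1.22%, 0.949% and 1.29%) and the RNA-binding list (1.37%, 1.25%, 0.949% and 1.26%) were then highest in library 1. The phosphatase list was then highest in library 2 (1.20%, 1.41%, 1.02% and 1.37%). With Bc1-like sites left out of the sites and the totals, the shares of libraries 1 to 4 were 1.89%, 2.52%, 0.725% and 0.619% for ribosomal proteins. Voltage-gated and HCN channels (1.33%, 2.40%, 0.604% and 1.17%) and translation factors (0.577%, 0.720%, 0.535% and 0.385%) then also had higher shares in libraries 1 and 2. Synaptic vesicle and release genes held 1.13%, 1.06%, 1.56% and 2.61% with all tags in the totals. Without Bc1-like sites they held 1.67%, 1.18%, 1.61% and 2.66%, and library 2 was lowest under both totals.

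The respiratory chain and ATP synthase, which make ATP in mitochondria, had 8 members among 90 sites (8.89%), beside 1 site of the libraries 3 and 4 pair. Cox7c (9 and 5 tags) and Ndufa3, a subunit of complex I (5 and 2), led them, followed by Ndufa2 (2 and 2) and Atp5k (2 and 1). The site named Atp5k lay between genes, 67.7 kb past the end of the gene, and had no signal. At the list's 81 sites in neither pair the shares were 1.70%, 1.38%, 1.04% and 1.30% of libraries 1 to 4, with the lowest in library 3 and little between libraries 2 and 4. Without Bc1-like sites in the totals they were 2.53%, 1.56%, 1.07% and 1.32%.

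Among synaptic genes, postsynaptic density scaffolds and signalling proteins had 7 members among 113 sites (6.19%), beside 1 site of the libraries 3 and 4 pair. They included Dlgap1 (4 and 5 tags), which links PSD-95 to Shank, Dlg1 (2 and 1), Lzts3 (1 and 2) and Ppp1r9b (2 and 1). Synaptic vesicle and release genes had 4 members among 65 sites (6.15%), beside 3 sites of the other pair. The members were Rab3a (4 and 3), a GTPase of vesicles, Mir5617 in Syn1 (2 and 2), Doc2b (1 and 3), a calcium sensor of release, and Syn2 (1 and 1). Glutamate and GABA receptors and their partners had 1 member among 79 sites (1.27%), Shisa7, with 1 and 2 tags, beside 4 sites of the libraries 3 and 4 pair. Voltage-gated and HCN channels had 2 among 82 (2.44%), Scn8a, a sodium channel, with 1 and 3, and Kcnip2, which binds potassium channels, with 1 and 1, beside 2. Apart from Dlgap1 and Rab3a, the synaptic members named here rested on 4 or fewer tags.

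The other cell biological lists were near the background. The cytoskeleton list had 4 members among 86 sites (4.65%), namely Arpc5l (2 and 3 tags), Mir6935 in Actg1 (2 and 2), Crmp1 (1 and 1) and Gsn (1 and 1), and motor proteins had 2 among 47 (4.26%), Kif1b (3 and 3) and Kif16b (1 and 3). The site named Arpc5l lay between genes, 205 kb beyond Arpc5l itself and without a signal, and the site named Kif16b lay between genes, 1662 kb past its end, so neither is placed in a transcript of the gene it is named for. Rab and Arf GTPases and their regulators had 6 among 129 (4.65%), led by Arf3 (5 and 4), Rab3a (4 and 3), Rab6a (4 and 1) and Arhgap35 (1 and 3). RNA-binding regulators had 4 among 96 (4.17%), namely Celf4 (5 and 2), Elavl3 (4 and 1), Hnrnpab (2 and 2) and Mir6402 in Elavl2 (1 and 1).

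Phosphatase subunits had 3 members among 79 sites (3.80%), Ppp6r1 (2 and 3 tags), Ppp1r9b (2 and 1) and Ppp2r5b (2 and 1). Translation factors had 2 among 55 (3.64%), Snora41 in Eef1b2 (5 and 3) and Eif3h (1 and 1), and the ubiquitin and proteasome list had 6 among 168 (3.57%), led by Psmb1 (3 and 2), Ube2h (2 and 1), Fbxw7 (1 and 1) and Ube2q2 (1 and 1). Zinc finger proteins had 11 among 171 (6.43%), and their leading entries, Zbtb25 and Zbtb1, are the Bc1-like sites above, which lie outside the genes. Zfp236 (3 and 1) and Zbtb11 (2 and 1) followed. Chromatin regulators had 1 member among 58 (1.72%), Crebbp, a histone acetyltransferase, with 1 and 1. The libraries 3 and 4 pair had 3 sites of the zinc finger list and 3 of the chromatin list, 5 of the ubiquitin and proteasome list, 2 of the phosphatase list and none of the translation factors. It had 4 sites each of the Rab and Arf and the RNA-binding lists, 2 of the motor proteins and none of the cytoskeleton list.

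Markers of cell types that the neuropil could hold were counted in the same way. Pyramidal neuron markers had no member among 23 sites, interneuron markers none among 10, microglia markers none among 4, and blood and vessel markers none among 4. Astrocyte markers had 1 among 22 (4.55%, near the 4.36% of all sites), Gfap, the intermediate filament of astrocytes, with 4 and 1 tags. Oligodendrocyte markers had 1 among 10, Mag, a myelin protein, with 1 and 1. Outside the lists, and chosen after their values were seen, Mlc1 above, Bcan (5 and 3 tags) and Plpp3 (7 and 3) are known from astrocytes, and C1qc (3 and 4) from microglia. Glial genes outside the lists that are not members were not counted, so these names give no glial share of the members.

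Because the rule sets members to 0 in libraries 3 and 4, the marker lists were also read at their other sites, outside both pairs. The 21 such astrocyte sites held 0.337%, 0.257%, 0.219% and 0.148% of the tags of libraries 1 to 4, where the 95% intervals of library 2 (0.161 to 0.412) and library 3 (0.128 to 0.374) overlap. The 9 such oligodendrocyte sites held 0.281%, 0.545%, 0.185% and 0.131%, with the interval of library 1 (0.210 to 0.376) overlapping that of library 3 (0.103 to 0.331). The interval of library 2 (0.394 to 0.753) lay above those of library 3 and library 4 (0.0665 to 0.259). The pyramidal neuron markers, which the tagged cells should express, were present in every library and over all their sites held 1.45%, 0.590%, 0.656% and 1.31%, with the lowest values in libraries 2 and 3, and the blood and vessel markers held 0.0312%, 0.560%, 1.28% and 0.148%. With Bc1-like sites left out of the sites and the totals, astrocyte markers held 0.502%, 0.291%, 0.224% and 0.151%. Oligodendrocyte markers then held 0.419%, 0.617%, 0.190% and 0.134%, and pyramidal neuron markers 2.17%, 0.669%, 0.673% and 1.34%. Blood and vessel markers then held 0.0465%, 0.634%, 1.31% and 0.151%. In these pooled tissues fewer cells of a type and less RNA per cell cannot be told apart, and the part of glial RNA in the members was not tested.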

How the data were processed

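The authors deposited raw tag counts (whole numbers, not normalized), in which each row is a polyA site of 1 base, its strand and a name. The study's methods describe sites as clusters of tags made with the CTK package, and the submitters' processing notes name cutadapt, Novoalign and mm10. The treatment of duplicate tags and of tags that match several places is not given in the sources used here.

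Groups came from the labels, which hold 4 libraries of 1 group and no contrast, so no test was run on the members, and only a check for single libraries that stand apart (Dixon's ratio) was made. Members and gene lists were chosen with earlier results of these data known. Sites were placed on GRCm38.p6 and GENCODE vM21 (no site of 9294 on chromosomes lay past a chromosome end, and 3 unplaced sites were not annotated), where a site in overlapping features on its strand counted as 3′UTR before any exon, and as exon before intron. Shares have 95% Wilson intervals, and medians have distribution-free 95% intervals. Sites named in the text were the 20 most tagged members, up to 4 per gene list, all Bc1-like members, genes with 2 members, the 5 members with the most tags elsewhere in libraries 3 and 4, and the 5 most tagged sites just outside the rule. Rps25, Bcan, Plpp3, C1qc and the Hdac8 site were named outside these rules. Python 3.11.15, pandas 2.3.3, scipy 1.17.1 and pysam 0.24.0 were used, and scripts were tested on simulated data.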

Additional observations from a re-analysis of the deposited data

Results flagged for a closer look

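Each of 17 per-library values was examined for a single library that stood apart from the other 3, by the gap to its nearest neighbour divided by the range, and 4 passed the 95% critical value. Chance flags about 1 in 20 such groups, or 0.85 of 17. Total tags stood apart in library 1 (ratio 0.934), with 16017 tags. The share of detected sites with a polyA signal stood apart in library 3 (ratio 0.916), at 73.6% against 83.2%, 83.5% and 82.6% in libraries 1, 2 and 4. Tags at Bc1-like sites stood apart in library 1 (ratio 0.873), with 5265 tags against 777, 154 and 126, and this rests on 1 site in Hdac8 (4030, 1, 134 and 99 tags), without which the ratio was 0.378 and no library stood apart. The share at the Ppp1r9b site downstream of the member (chr11:95006875) stood apart in library 2 (ratio 0.834), at 0.545% against 0.119%, 0.0336% and 0.115% in libraries 1, 3 and 4.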

How the results depend on the processing

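Of 44 values recomputed for 6 results under other settings, 22 stayed within the error (for counts, within 1.5 times) and 22 moved further. The 405 members fell to 75 when 2 tags were asked for in both libraries, and stayed between 382 and 407 when nearby sites were merged within 50, 100 or 200 bases, genes were counted in place of sites, or Bc1-like sites were left out. Leaving out each replicate in turn gave 597 to 2730 sites, with 1412 without library 1, 2730 without library 2, 597 without library 3 and 657 without library 4. The rule then asks less of the libraries that are left. The share with a polyA signal was 26.2% with the upstream side alone and 70.1% with AATAAA alone, and 79.7% to 85.7% with 1 replicate left out. The share in 3′UTRs was 75.4% by tags, 89.5% without Bc1-like sites, and 73.7% to 89.5% with 1 replicate left out.

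The share of members whose gene had tags elsewhere in libraries 3 or 4 was 18.7% with at least 2 tags, 18.8% within 10 kb, and 14.4% to 14.6% without library 3 or 4. The median GC content was 36.6% over 50 bases on either side, 43.3% with at least 2 tags, and 37.3% to 40.8% with 1 replicate left out, the lowest without library 2. The mean share of a library was 15.2% to 37.4% with 1 replicate left out, the highest without library 1. Merging within 100 bases, and the replicates left out for the results other than the number of members, were chosen after seeing the data, as were the shares at other sites, the split by library and the scaled counts without Bc1-like sites in the totals, and the count without the Hdac8 site. No paired analysis was possible because all libraries belong to 1 group. Most members rest on few tags, and a share at repeated sequence depends on how tags were placed.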
